A study of Rattus norvegicus with 30 samples.

Results

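Genes were chosen by a rule meant to pick those whose mRNA rose after traumatic brain injury (TBI) in the perilesional cortex and in no other brain area examined. The rule read the level of a gene as log2(CPM + 1) (CPM, the gene's share of all counts of the library scaled to a total of 1000000), and took the difference between the mean of the TBI libraries and the mean of the sham libraries in each area. A gene was kept when its mean was at least 2 CPM in every area, its thalamic and hippocampal differences lay between -0.15 and 0.15, and its lowest cortical TBI value lay above its highest cortical sham value. Up to 150 genes with the largest cortical difference could be kept, and only 3 of the 26404 genes in the tables met the rule. These were ENSRNOG00000011321, ENSRNOG00000006231 and another gene, called the third gene, ordered here by the size of their cortical difference. The tables give identifiers without names, and 0 identifiers matched the table of rat gene names used here, so the roles, positions and sequences of these genes are not given.

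The study compared adult male Sprague-Dawley rats, weighing 330 to 371 g at the operation, 3 months after lateral fluid-percussion injury or after a sham operation. Both groups were anesthetized and had a craniectomy of 5 mm over the left parietal lobe, and only the TBI group received the pressure pulse onto the dura. The sham group (rats 1 to 5) and the TBI group (rats 6 to 10) held 5 animals each, and according to the labels every rat gave 1 library each of the perilesional cortex, the ipsilateral thalamus and the hippocampus, 30 libraries in all. The hippocampal samples are labelled dorsal hippocampus, and the dissection was of the dentate gyrus with adjoining CA3. The labels name no drug treatment and no genetic change in either group. Because gene names could not be paired with the identifiers, the dissected areas were not checked against their marker genes.

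Lateral fluid-percussion injury leaves a cortical lesion that grows for weeks and is surrounded by surviving perilesional cortex. The thalamus on the same side is joined to the injured cortex by axons in both directions, and slow loss of neurons with gliosis is known to follow there, while the dentate gyrus loses some interneurons and hilar cells. In whole tissue, a gene can change because the cells that use it become more or fewer, or because each cell holds more or less of its mRNA, and these cannot be told apart in the libraries used here.

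The libraries held 21992859 to 31799879 counts. The 10 most counted genes took 14.1 to 29.6% of the counts in cortex and 6.32 to 10.5% in thalamus. In hippocampus they took 9.95 to 16.4% in 8 libraries, but 44.1% in sham rat 4 and 40.9% in sham rat 5. The study itself set aside a pair of sham hippocampal libraries because few of their reads aligned, without naming them, whereas all 5 were used here. The TBI against sham differences of the kept genes in hippocampus are also given without sham rats 4 and 5, and the area contrasts of the 3 genes without the hippocampal libraries of rats 3, 4 and 5. The hippocampal libraries labelled rat 3 and rat 8 also stood out. Of 42 genes that parted these rats by at least 1.5 on the log2 scale in the same direction in both cortex and thalamus, 41 parted them the other way in hippocampus, and 37 of the 42 also had cortical TBI and sham groups that did not overlap. Of the other 5 genes, 4 parted the rats the other way in hippocampus. Whether the sham and TBI labels of these hippocampal libraries were exchanged was not tested, so each of their hippocampal values is given under its label only. By the study's methods the thalamic libraries came from a different sequencer with a longer read length, while the sample labels name a single instrument for all areas. If the methods hold, the thalamus and its sequencing cannot be told apart.

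The first gene, ENSRNOG00000011321, had the largest cortical difference of the 3. In sham cortex it measured 1.74, 1.60, 1.88, 2.02 and 1.79 CPM in rats 1 to 5. In TBI cortex it measured 4.95, 3.28, 3.71, 2.83 and 2.83 CPM in rats 6 to 10. Every TBI library lay above every sham library, as the rule required, and rat 6 was the highest. The means were 1.81 ± 0.156 CPM in sham and 3.52 ± 0.877 CPM in TBI (SD, n = 5 each), a ratio of 1.95 and a difference of 0.67 ± 0.123 (SE) in log2(CPM + 1). The sham mean was under the minimum of 2 CPM, so the gene passed this filter in cortex only through the TBI group, and it was not kept when the minimum was 5 CPM. These cortical values rested on 43 to 144 counts per library.

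In thalamus the groups overlapped. Sham rats 1 to 5 measured 7.58, 6.94, 15.1, 9.40 and 7.68 CPM, and TBI rats 6 to 10 measured 11.1, 9.62, 9.73, 9.55 and 9.62 CPM. Sham rat 3 had the highest value of all 10 libraries, and the TBI libraries lay closer together than the sham libraries. The thalamic means were 9.35 ± 3.37 CPM in sham and 9.92 ± 0.649 CPM in TBI (SD, n = 5 each), a difference of 0.13 ± 0.188 (SE) in log2(CPM + 1). Without rat 3 the difference was 0.30, outside the limit of the rule.

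In hippocampus ENSRNOG00000011321 measured 6.77, 4.23, 3.22, 2.32 and 1.33 CPM in sham rats 1 to 5. The TBI rats 6 to 10 measured 2.68, 3.60, 4.33, 2.55 and 4.70 CPM. The sham values spanned the whole range of the TBI values, with the lowest levels in sham rats 4 and 5, the libraries in which few genes took many of the counts. The means were 3.57 ± 2.08 CPM and 3.57 ± 0.958 CPM (SD, n = 5 each), and the difference was 0.09 ± 0.324 (SE) in log2(CPM + 1).

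The second gene, ENSRNOG00000006231, met the rule by the narrowest margin. In sham cortex it measured 8.21, 8.65, 9.35, 8.01 and 8.82 CPM in rats 1 to 5, and in TBI cortex 19.4, 9.36, 15.6, 11.4 and 13.6 CPM in rats 6 to 10. TBI rat 7 and sham rat 3 were 0.000684 apart in log2(CPM + 1), with 248 and 264 counts, whereas the other TBI libraries lay at 11.4 CPM or more. The means were 8.61 ± 0.530 CPM and 13.9 ± 3.86 CPM (SD, n = 5 each), a ratio of 1.61 and a difference of 0.59 ± 0.171 (SE) in log2(CPM + 1).

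Outside the cortex the groups of ENSRNOG00000006231 overlapped. In thalamus, sham rats 1 to 5 measured 19.3, 16.9, 22.4, 22.1 and 13.3 CPM, and TBI rats 6 to 10 measured 24.7, 23.8, 17.1, 15.2 and 18.8 CPM. In hippocampus the sham rats measured 14.6, 26.9, 19.5, 12.1 and 10.6 CPM, and the TBI rats 14.1, 23.0, 20.4, 13.9 and 13.3 CPM. Sham rats 4 and 5 again had the lowest hippocampal values and sham rat 2 the highest. The difference was 0.08 ± 0.185 in thalamus and 0.06 ± 0.276 in hippocampus (SE, n = 5 each, log2(CPM + 1)).

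The third gene had the smallest cortical difference and tight cortical groups. Its cortical level was 10.2, 11.9, 13.1, 12.3 and 11.1 CPM in sham rats 1 to 5 and 16.8, 15.4, 14.9, 16.4 and 17.1 CPM in TBI rats 6 to 10. The groups were apart, and the TBI libraries lay within 14.9 to 17.1 CPM. The means were 11.7 ± 1.12 CPM and 16.1 ± 0.930 CPM (SD, n = 5 each), a ratio of 1.37 and a difference of 0.43 ± 0.0674 (SE) in log2(CPM + 1).

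In the other areas the third gene overlapped between the groups. Its thalamic level was 52.6, 41.1, 63.4, 63.0 and 48.5 CPM in sham rats 1 to 5 and 58.3, 61.8, 51.0, 38.8 and 57.6 CPM in TBI rats 6 to 10. Its hippocampal level was 20.5, 29.9, 24.3, 15.3 and 15.6 CPM in the sham rats and 18.2, 22.1, 30.1, 22.4 and 22.3 CPM in the TBI rats. Sham rats 4 and 5 were once more the lowest hippocampal libraries. The difference was -0.01 ± 0.165 in thalamus and 0.14 ± 0.208 in hippocampus (SE, n = 5 each, log2(CPM + 1)), the latter close to the upper limit of the rule.

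**Figure D1:**
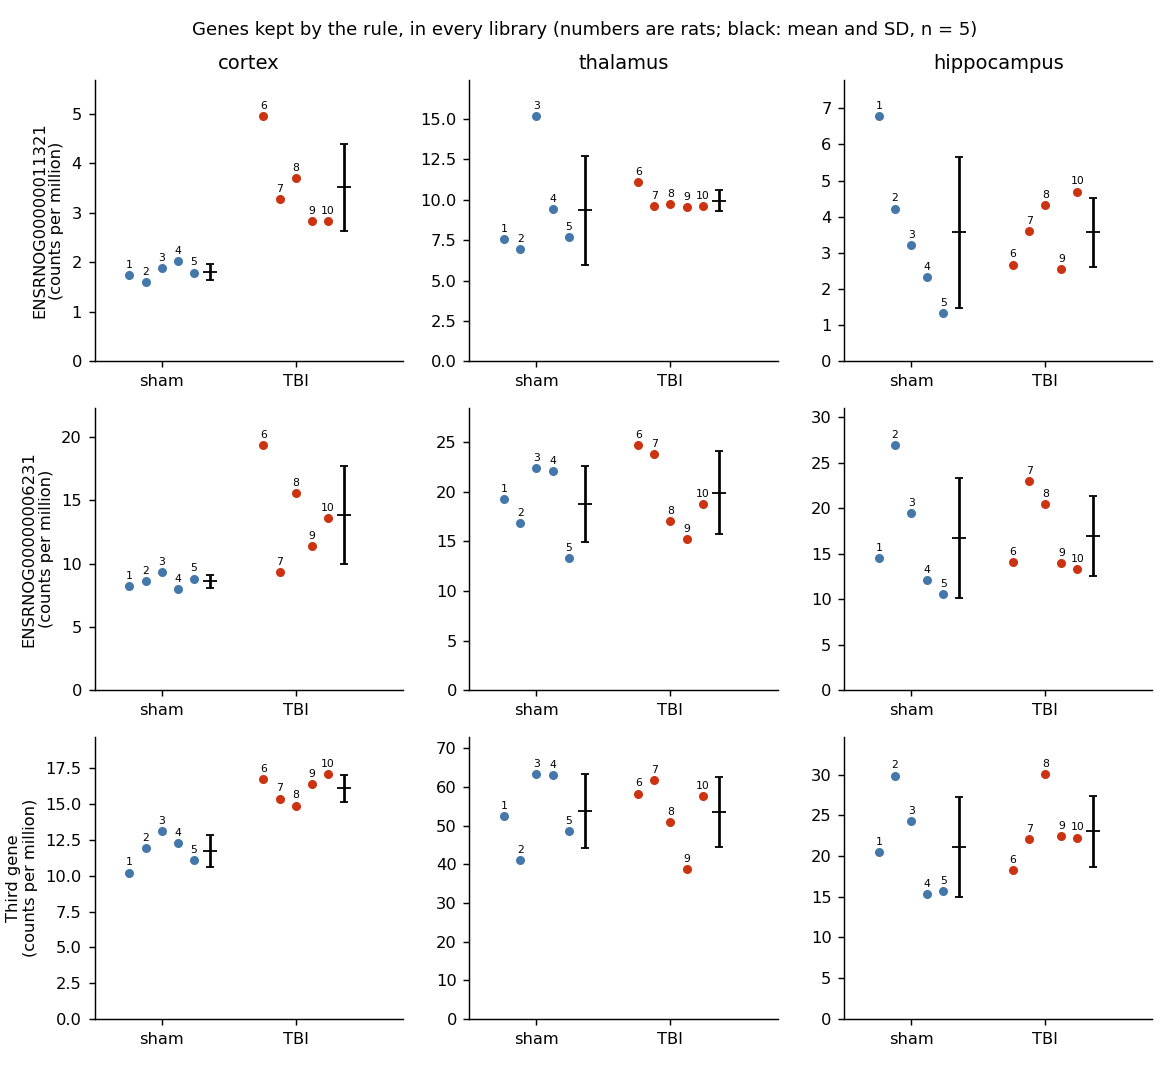
Level of the 3 genes in CPM (linear y axis from 0) in each of the 30 libraries, with sham in blue, TBI in red, rats numbered, and bars at the mean ± SD of 5 rats. TBI and sham are apart in cortex for every gene, by 0.000684 in log2(CPM + 1) for the second gene, and overlap in thalamus and hippocampus.

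These differences chose the genes and are therefore given as a description without a test. The genes stood close to the limits of the rule. In hippocampus the 3 genes were at 0.06, 0.09 and 0.14 inside the limit, and the nearest genes outside it that met the other conditions were at 0.15131, 0.18 and 0.21. The nearest genes outside the thalamic limit were at 0.18, -0.25 and -0.25. The distance between the lowest cortical TBI and the highest cortical sham value was 0.34, 0.000684 and 0.17 for the 3 genes in order, and the nearest genes without such a gap overlapped by 0.06, 0.06 and 0.08.

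The number of genes kept turned on the hippocampus. Of 13000 genes with a mean of at least 2 CPM in every area, 2324 had cortical TBI and sham groups apart in the upward direction (17.9%), which is the background for this part of the rule. Among these, 579 also had a thalamic difference inside the limit, and 576 of the 579 lay above the hippocampal limit and 0 below it. Only 241 of the 13000 genes (1.85%) had a hippocampal difference inside the limit, while 12705 were above it and 54 below. Both limits together held 86 genes, and the 3 kept genes were 3.49% of them.

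Scaling by column sums shifted nearly all hippocampal genes in one direction. The median difference over the 13000 genes was 0.17 in cortex, -0.00 in thalamus and 0.41 in hippocampus, with quartiles of 0.34 and 0.49. Relative to that median the 3 genes were at -0.32, -0.35 and -0.26 in hippocampus, lower than all but 1.38, 1.04 and 2.17% of the genes. In cortex they stood above 92.6, 90.6 and 82.1% of the genes. A hippocampal difference near 0 on this scale was thus a low one among all genes.

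Single libraries moved with this shift. The median gene of a hippocampal library, set against the mean of the sham libraries, was at 0.28, 0.37 and 0.33 in sham rats 1, 2 and 3, at -0.53 and -0.45 in sham rats 4 and 5, and between 0.32 and 0.49 in the TBI rats. The cortical libraries ranged from -0.19 to 0.15 in sham and from 0.00 to 0.35 in TBI. A low median went with a large part of the counts falling on 10 genes, and the thalamic libraries, in which that part was small, lay close together.

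**Figure D2:**
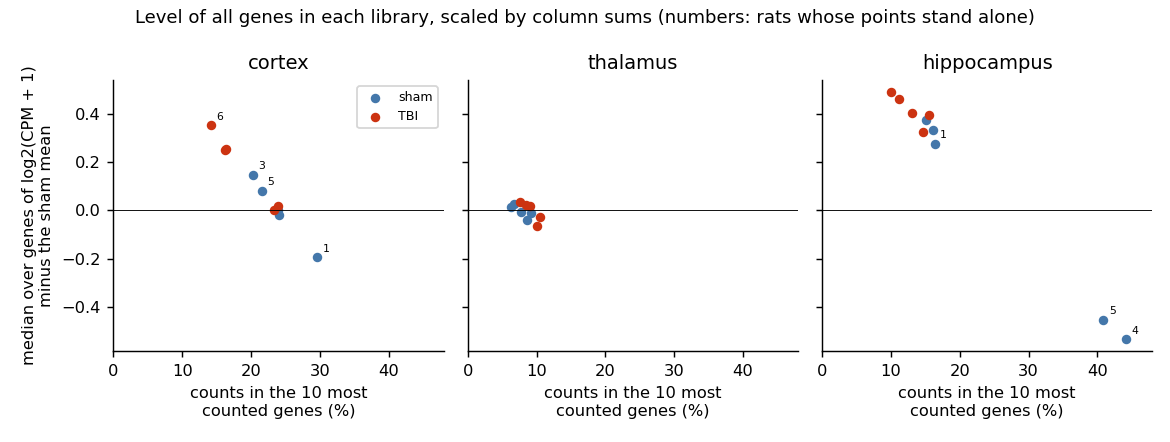
Median over genes of log2(CPM + 1) in each library minus the mean of the sham libraries of the same area (y axis), against the percent of counts in the 10 most counted genes (x axis), with sham in blue and TBI in red. Hippocampal sham rats 4 and 5 lie at -0.53 and -0.45, with 44.1 and 40.9% of their counts in 10 genes, apart from the other 8 hippocampal libraries.

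When libraries were scaled by the trimmed mean of M values (TMM), which sets the bulk of genes equal between libraries, the median difference was -0.03 in cortex, -0.02 in thalamus and -0.01 in hippocampus. On this scale the cortical differences of the 3 genes were 0.52, 0.39 and 0.23 in log2(CPM + 1). The first and the third gene still had every TBI library above every sham library in cortex, and the second had 3 of 5 TBI libraries above all sham libraries. For the third gene the margin was narrow, with 13.7 CPM as the lowest TBI and 13.5 CPM as the highest sham value. The thalamic differences were 0.11, 0.06 and -0.02.

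The hippocampal differences of the 3 genes were negative under TMM scaling. On the column-sum scale the rule took genes near 0 where the median gene was at 0.41, so values below 0 on a scale with a median near 0 follow from that choice and are no independent evidence of a fall. The genes are called here by the rule and not as genes that rise in cortex only. The differences were -0.23 ± 0.235, -0.36 ± 0.195 and -0.29 ± 0.146 (SE, n = 5 each), all outside the limit of the rule, at the lowest 2.40, 0.749 and 1.38% of all genes. ENSRNOG00000006231 then measured 13.8, 23.9, 17.6, 21.2 and 17.4 CPM in sham rats 1 to 5 and 12.2, 18.9, 17.7, 12.8 and 10.8 CPM in TBI rats 6 to 10. The groups overlapped, with TBI rats 6, 9 and 10 below every sham library. ENSRNOG00000011321 ranged from 2.18 to 6.42 CPM in sham and from 2.31 to 3.82 CPM in TBI, and the third gene from 19.4 to 26.9 CPM in sham and from 15.7 to 26.1 CPM in TBI. The groups of these genes overlapped as well.

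Leaving out the libraries in doubt left the hippocampal differences negative on the TMM scale. Without sham rats 4 and 5 they were -0.38, -0.33 and -0.20, and without rats 3 and 8 they were -0.36, -0.45 and -0.42 for the 3 genes in order. Without all 4 libraries they were -0.64, -0.42 and -0.32, over 2 sham and 4 TBI libraries. On the column-sum scale, leaving out sham rats 4 and 5 also turned the differences to -0.31, -0.24 and -0.11, whereas leaving out rats 3 and 8 left them at 0.03, 0.06 and 0.11. These alternatives used some of the libraries that chose the genes, and no test was made on them.

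The log2 fold changes of edgeR's count model, which scales by TMM and has no pseudocount of 1 CPM, gave the same order in cortex. For the 3 genes in order they were 0.74, 0.46 and 0.24 in cortex. In thalamus they were 0.07, 0.06 and -0.03, and in hippocampus -0.37, -0.37 and -0.29. Single rats moved the first gene, whose value was 0.31 in thalamus without rat 3 and -0.085 in hippocampus without rat 1. No p-value is given, because the same contrasts chose the genes.

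**Figure D3:**
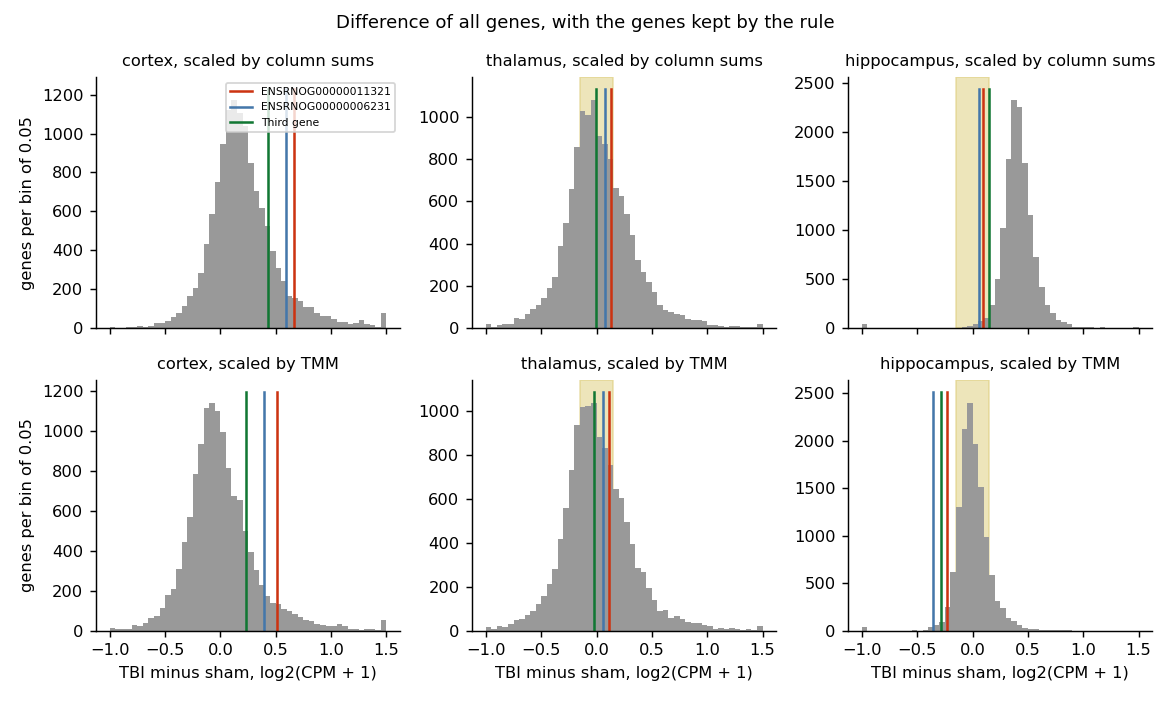
Number of genes (y axis) by TBI minus sham difference in log2(CPM + 1) (x axis, bins of 0.05, values beyond the axis gathered in the end bins) in each area, scaled by column sums (top) and by TMM (bottom), with the limits of the rule shaded and the 3 kept genes as lines. The hippocampal distribution is centred at 0.41 under column sums and at -0.01 under TMM, and the lines of the 3 genes lie at its lower edge under both.

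Applied to TMM-scaled values, the same rule kept 118 genes, of which 0 were among the 3. Of 12945 genes, 4761 lay inside both limits, 79.3% lay inside the hippocampal limit, and 1272 had cortical groups apart (9.83%). The 118 genes were 2.48% of those inside both limits, beside 9.83% of all genes. These shares read off the rule and were not tested. Under RLE scaling, another size factor, 111 genes were kept, and 108 of these were among the 118.

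The cortical rise of the 118 genes was small for most of them. Their cortical difference ranged from 0.11 to 1.35 with a median of 0.32 and quartiles of 0.25 and 0.43 in log2(CPM + 1). A difference equal to at least a 1.5-fold change of CPM + 1 was seen in 17 genes, and to at least a 2-fold change in 3 genes. The gene with the largest difference measured 3.94 ± 1.09 CPM in sham cortex (2.63 to 4.94) and 12.1 ± 5.13 CPM in TBI cortex (6.13 to 18.5; SD, n = 5 each), with differences of 0.10 in thalamus and 0.01 in hippocampus. The median difference of the 118 genes was 0.07 in thalamus and 0.04 in hippocampus, against -0.02 and -0.01 over all genes, and 86 and 79 of them were above 0.

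All 5 TBI rats shared the cortical rise of these 118 genes. The median over the genes, set against the sham mean, was 0.40, 0.33, 0.32, 0.30 and 0.26 in the cortex of TBI rats 6 to 10 and lay between -0.03 and 0.03 in the sham rats. In thalamus it was 0.02, 0.10, 0.09, -0.06 and 0.07 in the TBI rats and between -0.11 and 0.08 in the sham rats. In hippocampus it was 0.06, 0.10, 0.00, -0.03 and 0.01 in the TBI rats and between -0.04 and 0.03 in the sham rats. The groups were apart in cortex and overlapped in the other areas, which the rule itself asked of each gene or of its mean.

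On column sums the 118 genes moved in hippocampus with nearly all other genes. On that scale 99 of the 118 still had cortical groups apart and 100 lay inside the thalamic limit, beside 17.9 and 43.8% of all genes. The 118 were chosen by the same conditions in the same libraries under TMM scaling, so these counts follow largely from that choice. Inside the hippocampal limit there were 0 of the 118 and 1.85% of all genes. The hippocampal differences of the 118 were 0.22 to 0.58 with a median of 0.43, beside a median of 0.41 over all genes.

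**Figure D4:**
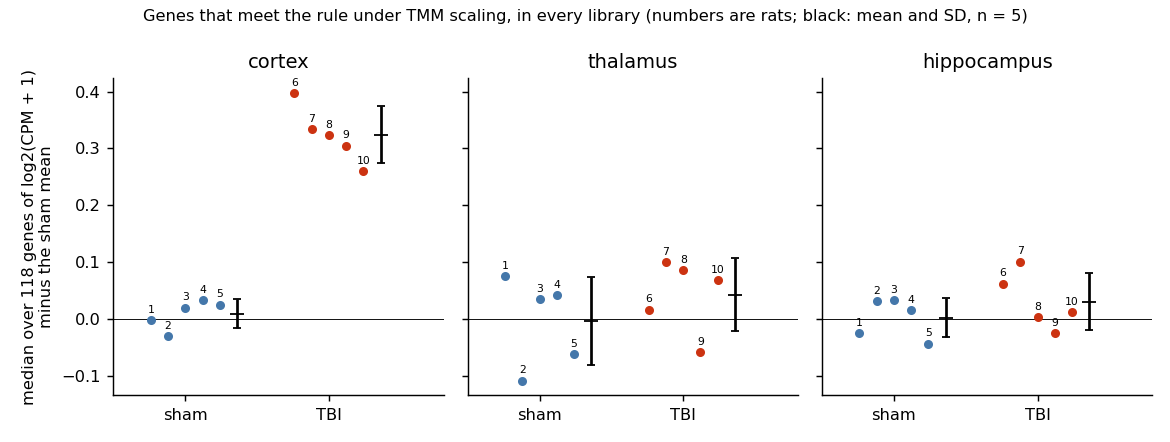
Median over the 118 genes kept under TMM scaling of log2(CPM + 1) minus the sham mean (y axis) in each library, with sham in blue, TBI in red, rats numbered, and bars at the mean ± SD of 5 rats. TBI rats lie at 0.26 to 0.40 in cortex, above all sham rats, and overlap with the sham rats in thalamus and hippocampus.

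The level of the 3 genes across brain areas was compared in the sham-operated rats alone. The contrast between areas was not itself in the rule, but the sham values of all areas were. The cortical condition favours a low sham cortex, and because the 3 genes had hippocampal differences among the lowest of all genes, their choice also favours a high sham hippocampus. The area contrasts are therefore given as a description, with no p-value and no reading of where these genes are expressed beyond the libraries that chose them. Levels are given as CPM scaled by TMM over all 15 sham libraries, and differences as edgeR log2 fold changes. In these libraries all 3 genes had their lowest mean in cortex.

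ENSRNOG00000011321 was at 2.06, 1.61, 1.69, 2.09 and 1.70 CPM in the cortex of sham rats 1 to 5. It was at 5.96, 5.88, 12.2, 7.61 and 6.56 CPM in thalamus and at 6.62, 3.87, 3.01, 4.21 and 2.25 CPM in hippocampus. Every cortical value lay below every value of the other areas, while thalamus and hippocampus overlapped through rat 1. The log2 fold change of cortex against thalamus was -2.06 (SE 0.26), and that of cortex against hippocampus was -1.14 (SE 0.26). That of thalamus against hippocampus was 0.92 (SE 0.24). Without the hippocampal libraries of rats 3, 4 and 5 the last 2 values were -1.51 and 0.55.

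ENSRNOG00000006231 was at 9.74, 8.67, 8.44, 8.30 and 8.36 CPM in the cortex of sham rats 1 to 5. It was at 15.1, 14.3, 18.1, 17.9 and 11.4 CPM in thalamus and at 14.2, 24.7, 18.2, 21.8 and 17.9 CPM in hippocampus. Cortex was again below both other areas in every rat, and thalamus and hippocampus overlapped. Cortex differed from thalamus by -0.82 (SE 0.15) and from hippocampus by -1.15 (SE 0.15) on the log2 scale. The difference of thalamus from hippocampus was -0.33 (SE 0.14). Without the hippocampal libraries of rats 3, 4 and 5 the hippocampal contrasts were -1.15 and -0.33.

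The third gene was at 12.1, 12.0, 11.9, 12.7 and 10.5 CPM in the cortex of sham rats 1 to 5. It was at 41.3, 34.8, 51.2, 51.0 and 41.5 CPM in thalamus and at 20.0, 27.4, 22.7, 27.7 and 26.5 CPM in hippocampus. The areas did not overlap, and the order was thalamus, hippocampus, cortex. The log2 fold changes were -1.89 for cortex against thalamus (SE 0.12), -1.07 for cortex against hippocampus (SE 0.12) and 0.83 for thalamus against hippocampus (SE 0.12). Without the hippocampal libraries of rats 3, 4 and 5 the hippocampal contrasts were -0.99 and 0.90.

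Large shares of all genes differed between these areas by edgeR's quasi-likelihood test. Of the 17315 genes tested, 35.8% were called higher in thalamus than in cortex and 35.1% higher in cortex. For hippocampus against cortex the shares were 23.8% higher in hippocampus and 20.5% higher in cortex. Between thalamus and hippocampus 32.3% were called higher in thalamus and 35.2% higher in hippocampus. No calls are counted for the kept genes, since their sham values helped to choose them.

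**Figure D5:**
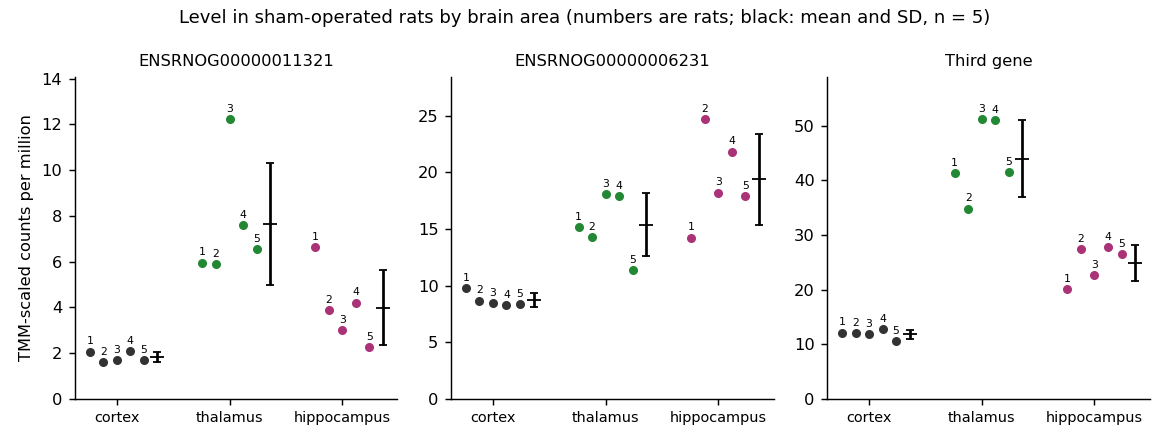
TMM-scaled CPM (linear y axis from 0) of the 3 genes in cortex, thalamus and hippocampus of the 5 sham-operated rats, with rats numbered and bars at the mean ± SD. Cortex is lowest for every gene, with means of 1.83, 8.70 and 11.8 CPM.

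The 118 genes kept under TMM scaling were compared between areas in the same sham libraries, also as a description. Their median log2 fold change of cortex against thalamus was -0.49 and of cortex against hippocampus -0.18, where the medians over the 17315 genes tested were -0.02 and -0.01.

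By the signs of the edgeR log2 fold changes, cortex was the lowest area for 76 of the 118 genes (64.4%). It was the lowest for 31.5% of the 17315 genes tested, which were not held to the minimum of 2 CPM in every area. Thalamus was the highest area for 81 (68.6%) and for 40.4% of the genes tested, hippocampus for 29 (24.6%) against 29.6%, and cortex for 8 (6.78%) against 30.01%. When TMM was applied within each area alone, which does not set the areas level with each other, the area with the highest mean sham CPM was thalamus for 97, hippocampus for 11 and cortex for 10 of the 118 genes. All 5 hippocampal sham libraries entered these values. They describe a list chosen by its sham and TBI values and were not tested.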

How the data were processed

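mRNA was enriched by poly-A selection and sequenced on Illumina instruments. The authors aligned reads to the RN5 (Rnor_5.0) genome with STAR and deposited unnormalized counts per Ensembl gene, 1 table per brain area. The counting tool and use of strand are not given in the sources used here. All columns were matched to samples by name, and 0 were left unused. No other gene had counts within 1.1-fold of those of a kept gene in every library.

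CPM used column sums and a pseudocount of 1. Area contrasts were fitted to the 15 sham libraries with edgeR 4.0.16 (R 4.3.3, limma 3.58.1): filterByExpr (minimum count 10, minimum total 15), TMM, robust quasi-likelihood test, Benjamini-Hochberg adjustment, threshold 0.05. Adjusted p-values of the kept genes are not printed, since the sham libraries also chose them. Replicates are separate rats. The same rats gave all areas, so the rat pairs the samples by design. Over the 5 sham rats, deviations of the same rat correlated on average by only -0.0303 between cortex and thalamus. The average was 0.0670 between hippocampus and cortex and 0.0938 for the remaining pair, with the hippocampal libraries in doubt included. Between different sham rats the averages were 0.0057, -0.0166 and -0.0235 in the same order.

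On simulated counts, 88.5% of 200 genes changed 2-fold were called for cortex against thalamus (17164 genes), 87.0% for cortex against hippocampus (17157 genes) and 90.0% for thalamus against hippocampus (17144 genes). Of the genes called, 4.32, 2.79 and 5.26% were not among those changed. The changed genes were drawn only from those above a minimum mean count, with equal numbers raised and lowered. In the data 35.8% of genes were called higher in thalamus than in cortex and 35.1% higher in cortex. The simulation therefore does not cover genes with few counts or contrasts in which so many genes differ.

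Alternatives were DESeq2 1.42.0, RLE size factors, no TMM, other filters and pseudocounts, the rat as a block, and left-out rats or libraries. Combinations of TMM with left-out libraries were chosen after seeing the data. The rule for named genes took the kept genes with the largest cortical difference. Without names, only 2 identifiers are printed, and planned pathway lists, marker lists and promoter motifs were not used. The genes and lists were chosen with earlier results of these data known.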

Additional observations from a re-analysis of the deposited data

Results flagged for a closer look

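In the thalamus of the TBI group, rat 6 measured 11.08 CPM of ENSRNOG00000011321, and the next library measured 9.731 CPM. The gap took 0.881 of the range of the 5 libraries, above the critical value of 0.71 in Dixon's test at 5 samples. It was 1 of 18 groups examined for the 3 genes, and about that many pass this value by chance.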

How the results depend on the processing

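The number of kept genes depended on scaling and on single libraries. It was 118 under TMM and 111 under RLE, 5 at a minimum of 1 CPM, 123 without a filter and 150 (the most allowed) without hippocampal sham rats 4 and 5. With TMM and without hippocampal rats 3 and 8 it was 101, without sham rats 4 and 5 it was 114, and without all 4 it was 90. With each rat left out in all areas it ranged from 0 (without rat 2) to 36 (without rat 5), with 20 without rat 4, 8 without rat 7, 6 without rat 8 and 1 without rat 6. Of the 3 genes, 0 stayed inside both limits under TMM, RLE and the 3 TMM combinations, 1 without hippocampal sham rats 4 and 5, and 0 to 3 with a rat left out (0 without rat 2, 1 without rat 3, 6 or 9). The median edgeR log2 fold change of the 3 genes in cortex was 0.46, or 0.69 with column sums (0.36 to 0.55 with a rat left out). In hippocampus it was -0.37, or 0.021 with column sums (-0.46 to -0.27 with a rat left out). In thalamus it was 0.06 (-0.03 to 0.13 with a rat left out). The sham area contrasts used libraries that chose the genes, so only their log2 fold changes are given. Their ranges over the alternatives follow for the 3 genes in order. Cortex against thalamus ranged over -2.16 to -1.78, -0.88 to -0.72 and -1.95 to -1.81. Cortex against hippocampus ranged over -1.51 to -0.90, -1.28 to -1.04 and -1.13 to -0.99. Thalamus against hippocampus ranged over 0.55 to 1.26, -0.44 to -0.22 and 0.71 to 0.92. With the rat as a block, ENSRNOG00000006231 was at -0.33 for thalamus against hippocampus.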
